A study of Mus musculus with 5 samples.

Results

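The genes described here are mouse genes whose names in the expression table start with 1700 and end in Rik, the form given to RIKEN full-length cDNA clones. They were selected on the wild-type testis signal: the transcript with the highest mean of both genotypes stood for each name, and a name was kept when its wild-type signal was at least 10. This gave 187 genes of 239 such names, among 23087 named genes of the table. The table's own description called 119 of them hypothetical proteins, and for 33 it gave a cDNA clone of adult male testis. RefSeq (GRCm38, used for names only) matched 185 of the 187. Of these, 78 now carry another symbol and 107 keep the RIKEN name, and by RefSeq's types 146 are protein-coding, 32 are long non-coding RNA genes, 6 are transcribed pseudogenes and 1 is a pseudogene of a non-coding RNA.

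The study profiled testes of 3-month-old mice in 5 libraries, with 1 library per condition. Messenger RNA came from wild-type males and from Taf7l-/Y males, which lack the X-linked gene Taf7l, with 6 RNA extracts pooled per genotype before library preparation. TAF7L and RNA polymerase II (Pol II) were mapped by chromatin immunoprecipitation in testis labelled wild type, with a library of non-specific IgG as control. The ChIP protocol names chromatin of both genotypes, from 10 mice. The RNA libraries held 100 to 200 M (mega) reads each per the labels, and the depth of the ChIP libraries is not known. Because no condition had a replicate, all differences are described by size, and none has a replicate check. The standard deviation printed beside a signal is the one the authors deposited; what it was taken over is not stated, and it is no spread between animals. Pooling also hides differences between the extracts.

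TFIID is the complex that places Pol II at promoters, and TAF7L is a germ-cell relative of its subunit TAF7. The study's title names TRF2, a relative of the TATA-binding protein, as a partner of TAF7L in spermiogenesis. Spermiogenesis is the phase in which the round haploid cell left by meiosis builds an acrosome and a flagellum and replaces its histones. Many of its genes are transcribed in testis alone and were first catalogued only as testis cDNA clones, which is how names of this series arose. In bulk testis, fewer cells of a stage and less RNA per cell cannot be told apart.

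Promoter sequences of 6 members are shown because the members with and without TAF7L at the promoter differed in base composition. RefSeq's promoter table (GRCm38.p6, 250 bases before to 50 after the annotated start) held 152 members, 127 of them with a single entry. The first 3 sequences belong to the members with the highest TAF7L promoter scores among those 127. The last 3 belong to the members with the largest decrease in the knockout and a TAF7L promoter score of 0. Each reads 5′ to 3′ on the gene's strand, and capitals mark every CG dinucleotide (CpG). The annotated start can differ from that of the deposited transcript, whose build is mm9.
1700001L05Rik (chr15:83367248-83367547, minus strand): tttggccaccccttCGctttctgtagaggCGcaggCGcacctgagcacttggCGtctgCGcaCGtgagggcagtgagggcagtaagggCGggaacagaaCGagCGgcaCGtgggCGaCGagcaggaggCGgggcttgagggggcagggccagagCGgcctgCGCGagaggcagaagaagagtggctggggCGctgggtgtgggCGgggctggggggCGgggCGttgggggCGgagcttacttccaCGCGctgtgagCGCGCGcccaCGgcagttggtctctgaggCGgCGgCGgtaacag
1700029F09Rik, now Tex30 (chr1:44102392-44102691, minus strand): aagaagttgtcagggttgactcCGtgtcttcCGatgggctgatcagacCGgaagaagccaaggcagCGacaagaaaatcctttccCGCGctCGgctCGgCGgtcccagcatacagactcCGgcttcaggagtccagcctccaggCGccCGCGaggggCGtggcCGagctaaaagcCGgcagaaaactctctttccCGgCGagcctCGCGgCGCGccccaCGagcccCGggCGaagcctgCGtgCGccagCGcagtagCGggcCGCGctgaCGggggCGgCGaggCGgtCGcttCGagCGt
1700102P08Rik (chr9:108392584-108392883, plus strand): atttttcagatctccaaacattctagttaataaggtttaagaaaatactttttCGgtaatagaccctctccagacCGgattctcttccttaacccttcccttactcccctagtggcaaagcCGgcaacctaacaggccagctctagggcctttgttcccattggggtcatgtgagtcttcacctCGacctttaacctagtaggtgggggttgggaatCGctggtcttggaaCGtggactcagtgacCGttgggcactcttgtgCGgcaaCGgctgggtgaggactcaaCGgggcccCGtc
1700012A03Rik (chr6:32050038-32050337, plus strand): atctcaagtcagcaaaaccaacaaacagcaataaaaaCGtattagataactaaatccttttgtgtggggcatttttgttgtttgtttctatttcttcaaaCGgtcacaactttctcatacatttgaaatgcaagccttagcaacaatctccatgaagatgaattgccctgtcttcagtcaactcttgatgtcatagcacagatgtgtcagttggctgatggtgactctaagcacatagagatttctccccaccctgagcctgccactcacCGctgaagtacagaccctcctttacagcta
1700001K19Rik (chr12:110682570-110682869, minus strand): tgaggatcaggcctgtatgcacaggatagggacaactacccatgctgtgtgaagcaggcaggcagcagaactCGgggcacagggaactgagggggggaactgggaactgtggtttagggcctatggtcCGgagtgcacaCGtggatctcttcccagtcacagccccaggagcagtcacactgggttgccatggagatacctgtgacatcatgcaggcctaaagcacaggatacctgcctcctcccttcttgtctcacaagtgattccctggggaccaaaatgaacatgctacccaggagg
1700080E11Rik, now Nudt16l2 (chr9:105145033-105145332, minus strand): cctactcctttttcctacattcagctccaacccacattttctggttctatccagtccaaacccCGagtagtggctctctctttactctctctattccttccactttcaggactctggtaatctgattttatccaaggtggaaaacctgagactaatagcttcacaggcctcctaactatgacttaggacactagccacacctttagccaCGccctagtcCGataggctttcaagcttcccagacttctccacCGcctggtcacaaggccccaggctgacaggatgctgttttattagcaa

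The first 3 windows held 30, 38 and 11 CpG, and the last 3 held 3, 3 and 4. Signals of the first 3 genes were 69.4 in wild-type and 45.6 in knockout testis for 1700001L05Rik, 18.3 and 24.5 for Tex30, and 64.0 and 116 for 1700102P08Rik. Their TAF7L promoter scores were 185, 173 and 134. For the last 3 the wild type gave 187, 212 and 116, whereas the knockout gave 25.1, 41.6 and 22.7, all at least 2-fold lower.

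The signal of the deleted gene was lower in the knockout. For Taf7l itself (mm9, chromosome X, 130994654 to 131011029) the signal was 13.2 (deposited SD 1.56) in wild-type and 2.04 (0.60) in knockout testis.

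In the wild type the members ranged from 10.05 to 1045, with a median of 80.1. The median of all 5284 named genes with the same wild-type minimum was 28.4. Together the members gave 4.39% of the summed wild-type signal of all named genes. In the knockout they gave 2.40%, ranging from 3.85 to 414 with a median of 39.9. Across members, which are not replicates, log2 signals in wild type and knockout correlated with a Pearson r of 0.866 (n = 187). The file does not name the unit, so whether signals are per length, as a comparison between genes needs, is not known.

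**Figure D1:**
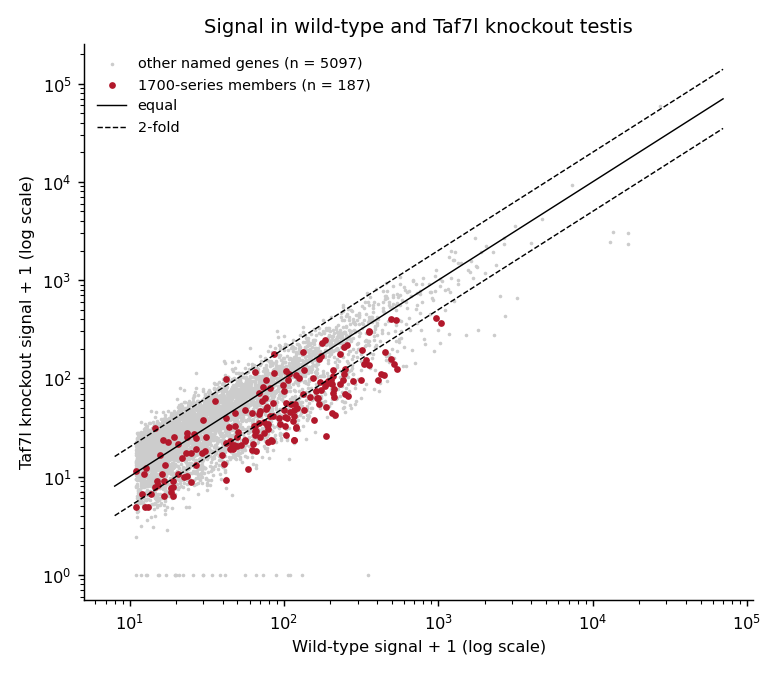
Signal + 1 in the wild-type library (x axis, log scale) and the Taf7l knockout library (y axis, log scale), 1 point per gene with a wild-type signal of at least 10; the solid line marks equal signals and the dashed lines 2-fold differences in the signal + 1. Of the 187 members, 163 lie below the line of equal signals.

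Of the 12 most abundant members, 8 still carry the clone name. The highest was 1700003F12Rik (chromosome 2, 154374639 to 154375784, mm9), with a wild-type signal of 1045 (deposited SD 57.3) and a knockout signal of 366 (28.9). Its position overlaps Necab3, so reads of both may be mixed. Exons and strands were not compared. Next came 1700092M07Rik (chromosome 19, 8815207 to 8815715), with 966 (45.4) and 414 (28.3). Both were at least 2-fold lower in the knockout, with log2 changes of -1.51 and -1.22. The change used throughout is log2((knockout + 1)/(wild type + 1)), a scale on which low genes change less than their plain ratio.

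Below these, wild-type signals lay close together. 1700015G11Rik had 539 and 122 and 1700042G07Rik 518 and 138, while 1700025K23Rik, now Fam229b, had 534 and 392. These 3 wild-type signals differed by less than the sum of their deposited SDs (37.6, 41.2 and 19.9), but the knockout signals did not keep that order. 1700029F12Rik had 491 and 405 and 1700013G24Rik 489 and 155, again a pair with nearly equal wild-type signals and log2 changes of -0.28 and -1.65. The next 4 were all at least 2-fold lower. 1700090G07Rik (Tmem247, a transmembrane protein gene) had 448 and 184, 1700009N14Rik 443 and 108, the pseudogene 1700019M22Rik 426 and 109, and 1700031F10Rik (Dnajb8, a DnaJ co-chaperone gene) 406 and 95.6. The twelfth, 1700034O15Rik, is now Llcfc1 and is described with the fusion genes.

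To describe how the loss of Taf7l was associated with these transcripts, the genotypes were compared gene by gene. Most members were lower in the knockout library. Of the 187 members, 99 (52.9%) were at least 2-fold lower, 3 (1.60%) were at least 2-fold higher and 85 lay within 2-fold. The background was 14.5% lower and 5.47% higher over all named genes with a wild-type signal of at least 10, and 7.11% and 7.14% over all 13213 named genes with a mean of at least 1. Because the wild-type signal chose the members, these counts describe them and support no inference. When the names of the series were chosen by a knockout signal of at least 10 instead, 85 of 171 were at least 2-fold lower, against 8.69% of all named genes chosen that way.

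The median log2 change of the members was -1.07, with quartiles of -1.39 and -0.37, beside a median of 0.14 over all named genes with the same minimum. Changes ran from -2.85 to 1.24. The median over all named genes with a mean of at least 1 was 0.40, so the scale of the knockout library matters. With the knockout multiplied by 0.711, which brings that median to 0, 131 members lay past 2-fold downward and 0 upward, against a background of 23.7% and 0.303%. Downward differences then made up 100% of the members' calls, from 97.1%, and 98.7% of the background's, from 72.7%. In 148 members the knockout lay below the wild type by more than both deposited SDs together, and in 14 it lay above. The background of these counts was 31.1% below and 40.8% above.

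**Figure D2:**
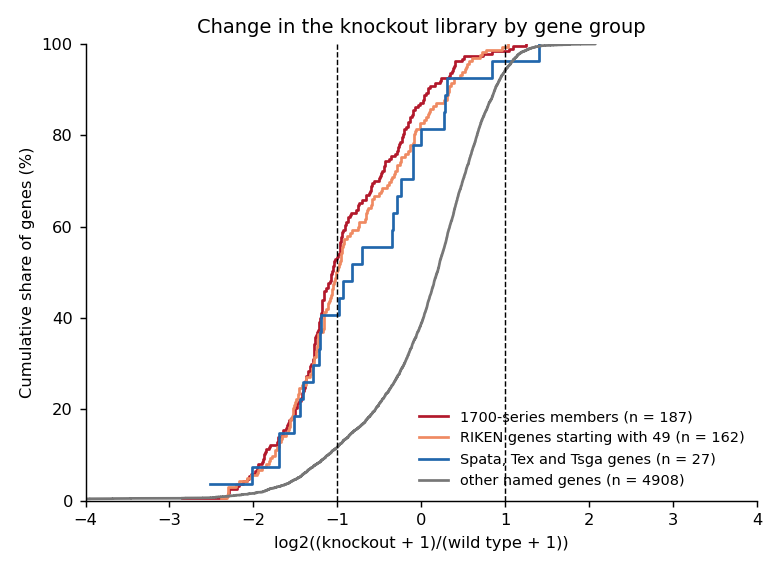
Cumulative share of genes (y axis, %) by log2((knockout + 1)/(wild type + 1)) (x axis) for the members, the RIKEN genes whose names start with 49, the Spata, Tex and Tsga genes and all other named genes, all with a wild-type signal of at least 10; dashed lines mark 2-fold. At the left dashed line the curves stand at 52.9%, 50.6%, 40.7% and 11.7%.

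Other groups of genes named from testis showed a like pattern. Of the 162 RIKEN genes whose names start with 49 and pass the same minimum, 82 were at least 2-fold lower and 1 higher, with a median of -1.01. Of 27 Spata, Tex and Tsga genes, named for spermatogenesis or testis, 11 were lower and 1 higher, with a median of -0.83. The 4908 remaining named genes had 576 lower and 284 higher genes and a median of 0.19. Whether the first 3 groups differ from each other was not tested.

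The 10 largest decreases were all of autosomal genes, as were 178 of the 187 members. 1700012A03Rik (chromosome 6, 32000287 to 32008915, mm9) went from a wild-type signal of 187 (deposited SD 10.7) to 25.1 (4.20), and its log2 change was -2.85. It stood apart from the rest, since the next value was -2.32, for 1700001K19Rik with 212 and 41.6. Nudt16l2, 1700096J18Rik and 1700031M16Rik followed with changes of -2.30, -2.29 and -2.29. The other 5 were 1700034E13Rik, 1700008P02Rik, 1700015G11Rik, Dnajb8 and 1700009J07Rik, with changes between -2.19 and -2.05. Of these 10 genes only 1700096J18Rik had a TAF7L promoter score, of 35.0, and only 1700031M16Rik had a Pol II promoter score of 0.

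The 3 members at least 2-fold higher were all within 2-fold after the knockout was rescaled. 1700011M02Rik, an X-linked long non-coding RNA gene, had 41.0 (deposited SD 8.28) in wild-type and 98.3 (14.7) in knockout testis. 1700006A11Rik had 13.6 (1.48) and 30.0 (2.77), and the non-coding gene 1700020N18Rik had 85.6 (9.55) and 177 (21.6). Their log2 changes of 1.24, 1.09 and 1.04 became 0.75, 0.62 and 0.55. 1700102P08Rik and 1700029M20Rik came next, with changes of 0.84 and 0.73, or 0.36 and 0.25 after rescaling. The others among the 10 highest were Armt1, Shcbp1l, 1700018B24Rik, Tex30 and 1700029P11Rik, with 0.51 to 0.39. Apart from Armt1, with 0.04, these were below 0 after rescaling. In all, 24 members had a change above 0 and 6 had one after rescaling.

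Members that now have a named role were placed in groups, and the values of the groups differed. These groups were formed after the values were seen, from current symbols. Among 6 genes of gamete fusion and of the acrosome, the vesicle whose enzymes the sperm head releases at the egg, 5 were at least 2-fold lower. Llcfc1, which encodes a sperm protein needed for fusion with the egg, had 356 (deposited SD 16.8) in wild-type and 136 (11.3) in knockout testis. Spaca9 had 229 and 86.0, Izumo2, a relative of the fusion protein gene Izumo1, 93.8 and 33.0, and Spaca7, of the acrosome, 78.2 and 29.5. Fam209 had 183 and 81.6. Spata46, the exception, had 208 and 106, a log2 change of -0.97, and was past 2-fold after rescaling.

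The 3 histone variant genes were at least 2-fold lower, also after rescaling. H2bl1 encodes the subacrosomal H2B variant and had 315 and 95.4. H2ap, an X-linked H2A relative, had 249 and 68.5, and H2al1m, a short H2A variant of condensing spermatids, 65.1 and 17.0. H2al1m has near-identical copies and overlaps Xk in the table, so its value is uncertain. All 3 had a TAF7L promoter score of 0. Of 2 chaperone genes, Dnajb8 was at least 2-fold lower, while Tsacc, the co-chaperone of the kinase TSSK6, had 319 and 194 and passed 2-fold only after rescaling.

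By current symbol, 14 members are Spata, Spatc or Tex genes, Spata46 among them, and 12 of the 14 were at least 2-fold lower. The most abundant was Spata45 with 330 and 139, followed by Tex33 with 200 and 94.2 and Tex43 with 147 and 64.1. Tex44 had the largest decrease of the group, from 60.8 to 17.8. The other lower members, Tex48, Tex29, Tex35, Tex37, Spata25, Spatc1l, Spata31d1a and Tex45, had log2 changes between -1.64 and -1.06. Spata31d1a belongs to a family of close copies, so its reads are uncertain. Spata46 and Tex30 were the exceptions. Tex30 was higher in the knockout, with 18.3 and 24.5, and it had the second highest TAF7L promoter score of all members.

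The 10 members grouped here as flagellum and cilium genes were mostly within 2-fold. Only Cfap97d1, of the sperm axoneme, was at least 2-fold lower among 10, with 101 (deposited SD 9.51) and 39.7 (5.16). Catsperz, an auxiliary subunit of the CatSper calcium channel of the sperm tail, had 353 (11.5) and 305 (14.4). Cfap206, linked to the radial spokes, had 229 and 175. Cfap126 lay at the threshold with 110 and 54.4, and Cfap157 just inside it with 67.5 and 33.9. Cfap299 had 54.7 and 47.2, Cfap161 41.2 and 38.1, Cfap77 14.1 and 7.92, and Pifo, a gene of the primary cilium, 42.9 and 31.2. Ift43, of intraflagellar transport, had 80.5 and 79.5, equal within the deposited SDs. After rescaling 4 of the 10 were at least 2-fold lower. The group is not a full list of such members and does not stand for flagellar genes in general. Members placed in other groups, or in none, may also act in the flagellum. The contrast with the acrosome genes therefore depends on the grouping and was not tested. Among sperm tail genes with established names, Odf1 and Akap4 had log2 changes of -2.52 and -2.07, and Tekt1 and Tekt4 of -0.35 and -0.56.

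The 3 members grouped under meiosis and the 3 grouped as broadly expressed showed no 2-fold difference. Both sets were picked after the values were seen and do not stand for all such members. Syce3, of the central element of the synaptonemal complex, had 107 and 109, equal within the deposited SDs. Shcbp1l, which acts in spermatocytes, had 132 and 184. 1700013H16Rik, described in the table as like synaptonemal complex protein 3, had 15.2 and 9.55, and was past 2-fold after rescaling. Mtres1, a nuclear gene for a mitochondrial protein, had 25.7 and 23.9, the autophagy gene Rubcn 16.7 and 21.7, and Armt1 15.5 and 22.5. All 6 had a TAF7L promoter score. Actl10, an actin-like gene, had 15.8 and 7.98.

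**Figure D3:**
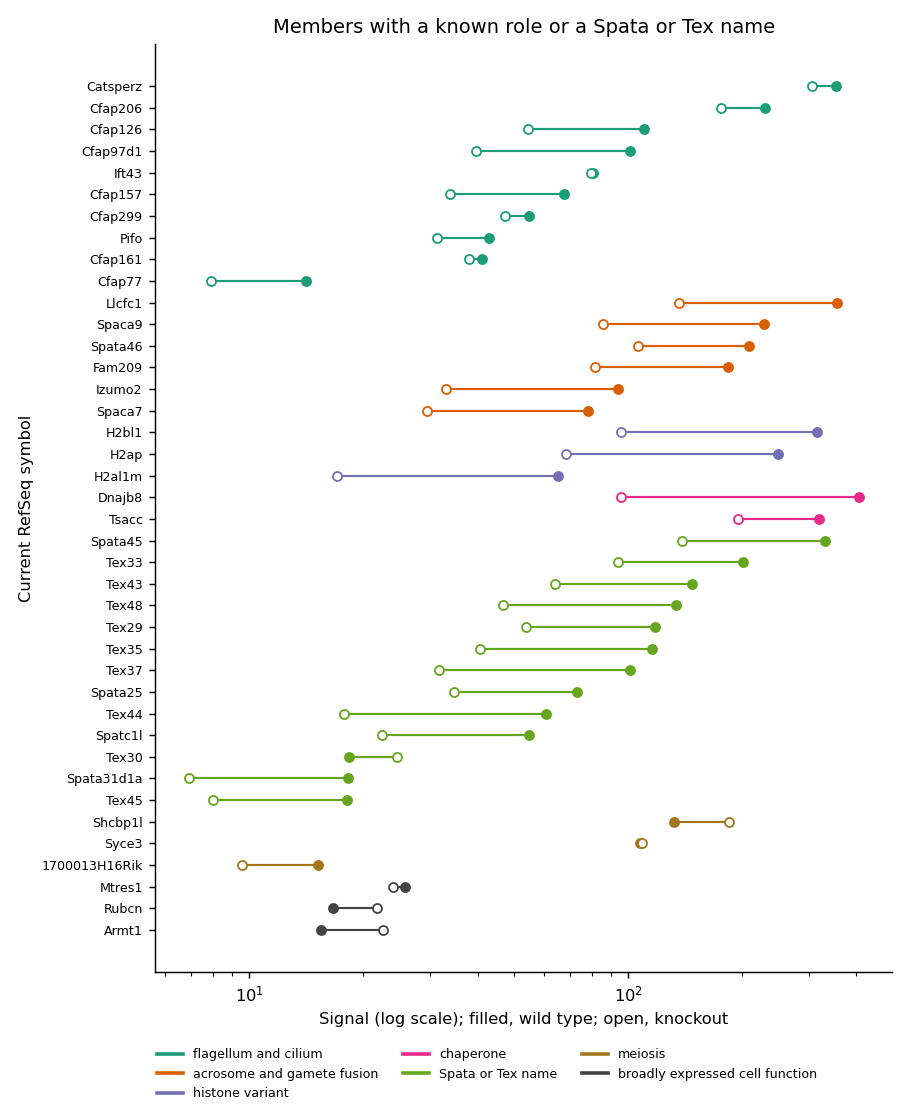
Signal (x axis, log scale) in the wild type (filled) and the knockout (open) for members with a known role or a Spata or Tex name, 1 row per gene, coloured by group; each point is 1 library. Acrosome and histone variant genes and the Tex genes other than Tex30 have open points to the left of the filled ones, while Ift43 and Syce3 have both points together.

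The spermatid genes with established names gave the frame for these values. Of a list of 50, among them Prm1, Odf1 and Tssk6, 38 lay past 2-fold downward and 0 upward, with a median log2 change of -1.23, or 42 and 0 after rescaling. One member, Spaca7, stands in that list. Of 11 germ cell markers, 8 of which are also in that list, 7 were lower, all of them shared, and 1 was higher. The higher one was Sycp1 of meiotic prophase, with 12.5 and 27.2, which was within 2-fold after rescaling.

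Markers of other cells also differed between the wild-type and knockout libraries. With 1 library per genotype, genotype and library cannot be told apart. Among 11 measured Sertoli genes 4 were past 2-fold upward and 0 downward, and they summed to 867 in wild-type and 1710 in knockout testis. The summed signal of 8 spermatogonial genes was 47.5 and 109, with 3 of the 5 at a mean of 1 or more at least 2-fold higher. For 8 leukocyte genes it was 43.6 and 259, with 4 of 7 higher. Cd52, also abundant in epididymis, had 3.17 and 160 of this, and the other 7 summed to 40.4 and 98.4. For 7 Leydig genes the sums were 1920 and 1554, with 3 higher. Insl3 had 1686 and 1052 and Star 23.5 and 11.7, and without Insl3 the sums were 234 and 502, so 1 gene turned the direction. Of 10 epididymal genes 6 reached a mean of 1 and all 6 were higher, with sums of 0.742 and 206. Defb2 and Lcn5 were listed at 0 in the wild type, and Lcn5, Lcn8, Lcn9 and Gpx5 were below 0.2 in both. After the knockout was rescaled the higher counts were 2 of Sertoli, 0 of spermatogonial, 1 of leukocyte and 6 of epididymal genes, and Leydig genes had 2 higher and 2 lower. The part of these cells in the members' values was not tested.

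TAF7L had a promoter score at fewer members than at other genes of the same minimum. Of the 187 members, 67 (35.8%, 95% Wilson interval over genes 29.3 to 42.9) had a TAF7L promoter score above 0, against a background of 57.7%. The share was 35.8% of the RIKEN genes starting with 49 and 44.4% of the Spata, Tex and Tsga genes. For Pol II it was 166 members (88.8%), above the background of 82.6%. The scores are the authors', how they were defined is unknown here, and 0 was read as no assigned signal. Neither table has a column for the IgG library, and no score can be read against it. Of the members with Pol II, 39.8% had TAF7L, against 69.6% of all named genes with Pol II.

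Scores were also lower where present. The median TAF7L promoter score of the 67 members was 56.7 (range 32.1 to 185), beside 74.6 over all named genes with a score. The median Pol II promoter score was 204.5 among the members and 417 among all. The highest TAF7L scores after 1700001L05Rik (185) and Tex30 (173) were 163 at Rubcn, 134 at 1700102P08Rik, 129 at Shcbp1l and 126 at 1700020N18Rik. The highest Pol II scores were 1160 at Rubcn, 1110 at Tex30, 1060 at 1700030J22Rik, 904 at 1700001L05Rik, 853 at 1700020N01Rik and 831 at Tsacc. None of these genes was among the 12 most abundant members.

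The other position classes held TAF7L at further members. In the proximal class 36 members had a score, 19.3% against a background of 35.2%, and in the distal class 75, 40.1% against 56.3%. In all 120 members had a score in at least 1 class and 67 had none, against 848 of 5284 named genes. One signal can be assigned to several genes. At 1700003F12Rik the Pol II promoter score was 676, and the neighbouring Actl10, which also overlaps Necab3, had 676 as its proximal score.

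Members were then read by their TAF7L promoter score, with no test since each library is single. Of the 67 with a promoter score, 15 (22.4%) were at least 2-fold lower and 1 higher, with a median log2 change of -0.45. Of the 120 without, 84 (70.0%) were lower and 2 higher, with a median of -1.23. The wild-type medians were 71.7 and 96.7. After rescaling 31 and 100 were lower. Members with TAF7L in the proximal but not the promoter class had 10 of 22 lower, those with a distal score alone 22 of 31, and those with no score 52 of 67, with medians of -0.998, -1.24 and -1.28. Over all named genes with the same minimum, 5.57% with and 26.8% without a TAF7L promoter score were at least 2-fold lower, and the medians were 0.26 and -0.16. The groups most like the members had a like split. Of RIKEN genes starting with 49, 15 of 58 with and 67 of 104 without a score were lower. For the Spata, Tex and Tsga genes these counts were 3 of 12 and 8 of 15.

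**Figure D4:**
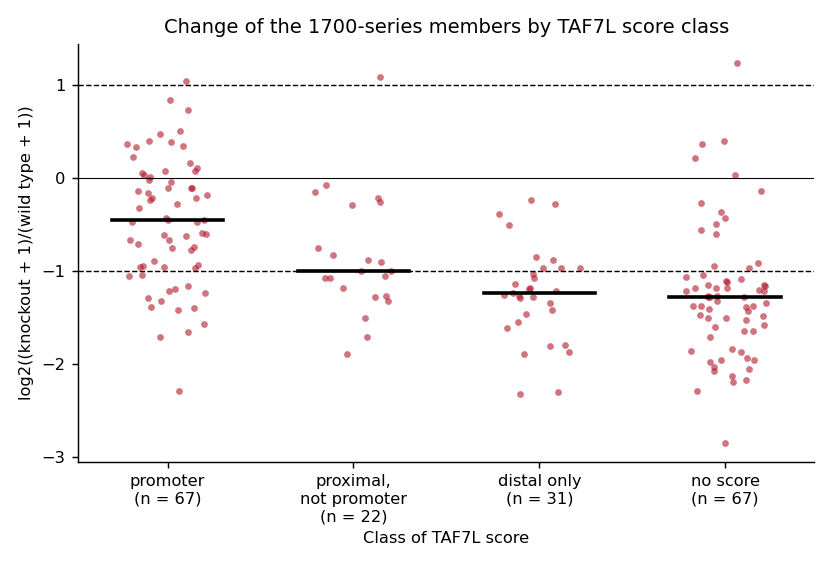
Log2((knockout + 1)/(wild type + 1)) (y axis) of each member by the class of its TAF7L score (x axis); bars mark medians, dashed lines 2-fold and the solid line no change. The medians are -0.45 for the promoter class, -0.998 for proximal, -1.24 for distal only and -1.28 for no score.

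Pol II moved with TAF7L, so the 166 members with a Pol II promoter score were also split by it into 3 groups. In the highest group 46 of 55 members had TAF7L, in the middle one 16 of 56 and in the lowest 4 of 55. In the highest group, 8 of 46 with TAF7L and 6 of 9 without were at least 2-fold lower. In the middle group these counts were 5 of 16 and 29 of 40, and in the lowest 2 of 4 and 38 of 51. Some of these sets are small, with 9 and 4 genes. All named genes were not split this way, so whether the counts are particular to the members is not known. Members with no Pol II promoter score had 11 of 21 lower, close to the 88 of 166 with one.

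**Figure D5:**
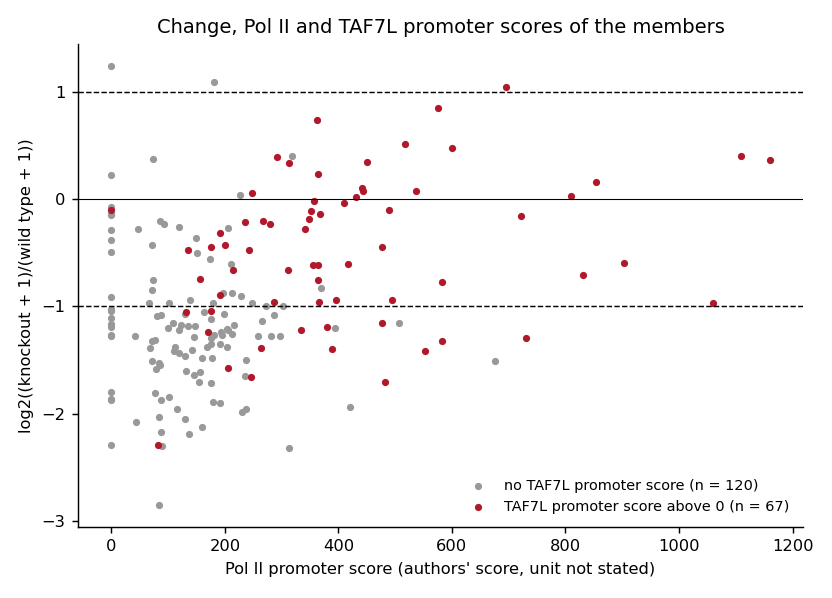
Log2((knockout + 1)/(wild type + 1)) (y axis) against the Pol II promoter score (x axis, the authors' score) of the 187 members, with red points for a TAF7L promoter score above 0 and grey points for 0; dashed lines mark 2-fold. Of the 55 members in the highest of the 3 groups of Pol II scores 46 are red, and 14 of the 55 lie at or below the lower dashed line.

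The split by TAF7L held in both kinds of gene. Of protein-coding members 13 of 49 with TAF7L and 69 of 97 without were at least 2-fold lower. Of long non-coding members these counts were 2 of 17 and 11 of 15. No background by kind of gene was taken over all named genes. Long non-coding members had TAF7L in 17 of 32 cases and protein-coding ones in 49 of 146. The medians of log2 change were -0.63 and -1.10.

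Base composition followed the TAF7L score as in the sequences shown. Over the 127 members with a single promoter entry, the 50 with TAF7L had a median of 13 CpG per 300 bases (quartiles 8.25 and 24.8) and the 77 without a median of 3 (2 and 7). The GC content was 56.8% and 50.3%. Among named genes with the same minimum and a single promoter entry, the medians were 23 CpG with TAF7L (n = 2007) and 13 without (n = 1274). Of 45 members with 0 to 3 CpG, 5 had TAF7L and 35 lay past 2-fold downward, and the median log2 change was -1.28. Of 21 members with 20 or more CpG, 16 had TAF7L and 2 were lower, with a median of -0.16. The bins between, 4 to 9 and 10 to 19 CpG, had medians of -1.15 and -0.62. The bins were not counted over all named genes, so whether this order is particular to the members is not known.

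Short motifs were searched in the same windows on both strands. TATAAA, the core of the TATA box, occurred in 13 of the 127 members (10.2%). The share was 8.14% of the 3281 named genes with the same minimum and a single entry, and 14.8% of all single-entry promoters. TATAAA was in 2 of 50 members with TAF7L and 11 of 77 without. On the gene's strand within bases 36 to 19 before the annotated start, where a TATA box lies, it was in 0 of the 127 members, 0.945% of those named genes and 2.21% of all. GTTGCCA, which is part of the site of RFX factors, occurred in 16 members (12.6%), 5.70% of those named genes and 4.48% of all. TGACGT, part of the cAMP response element, occurred in 8 members (6.30%), 13.0% and 7.51%. The full element TGACGTCA occurred in 1 member (0.787%), 3.66% and 1.85%. CCAAT occurred in 45 members (35.4%), 40.4% and 38.2%. No motif contains another, apart from TGACGT within TGACGTCA.

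Position in the genome gave smaller sets. Members lay on 20 chromosomes, from 20 genes on chromosome 2 to 2 on chromosome 16. Of 9 X-linked members 6 were at least 2-fold lower and 1 higher, and 1 had a TAF7L promoter score. Over all named genes with the minimum, 55.9% of 118 X-linked and 13.6% of autosomal genes were lower. Higher were 13.6% of the X-linked and 5.29% of the autosomal genes, and 4.24% and 59.0% had a TAF7L promoter score. In 27 members the position overlapped another named gene. Of these 8 were lower, with a median of -0.71, against 91 of 160 without overlap, with a median of -1.11.

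The threshold on the wild-type signal cut through a continuous range. Just inside it lay 1700034H15Rik with 10.05 in wild-type and 3.85 in knockout testis, 1700003G18Rik with 10.07 and 10.3, and 1700067K01Rik with 11.0 and 5.68. Just outside lay 1700094D03Rik with 9.99 and 4.57, 1700123K08Rik with 9.97 and 4.18, and 1700047M11Rik with 9.75 and 12.7. Of the 52 names below the minimum, 6 had a knockout signal of at least 10.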

How the data were processed

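RNA and ChIP libraries of testis, 1 per condition, were used as 2 tables of the whole series. Per the submitters' processing notes, Bowtie, TopHat and Cufflinks served the RNA libraries, Bowtie the ChIP libraries, and the build was mm9; no tool version, and no name of a peak caller, is given in the sources used here. The deposited expression table has 55350 transcripts with a mean and a standard deviation of a signal per genotype, per the file headers, without a stated unit; its sums differ between libraries. A deposited log2 ratio and a deposited ratio of spread to mean, per the file headers, were not used. The binding data, 55419 transcripts, carry deposited scores for each factor in 3 position classes, per the file headers.

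Rows whose name was only a sequence accession unknown to RefSeq (7230) were left out, and the row with the highest mean of both genotypes stood for each of 23087 names. ChIP scores were joined by transcript identifier. Change was log2((knockout + 1)/(wild type + 1)), and 2-fold on that scale was called. With 1 library per genotype there is no test across samples and no p-value. The members and lists were chosen with earlier results of these data known. Genes were named by rank in wild-type signal (12), decrease and increase (10 each), TAF7L and Pol II promoter scores (6 each), nearness to the minimum (3 on each side) and current symbol (Spata, Tex, Cfap and the like). H2ap, H2bl1, H2al1m, Tsacc, Fam209, Ift43, Pifo, Syce3, Shcbp1l, 1700013H16Rik, Mtres1, Rubcn and Armt1 were grouped by role after their values were seen, as were the motifs and the CpG bins. Shares have 95% Wilson intervals where given, which cover counting over genes only. Python 3.11, pandas 2.3.3, numpy 2.4.6, scipy 1.17.1 and matplotlib 3.10.9 were used.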

Additional observations from a re-analysis of the deposited data

How the results depend on the processing

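For all members, the counts of lower and higher genes and the median change were recomputed. By TAF7L promoter score, only the count of lower genes and the median were recomputed, a step added after the data were seen. The settings were pseudocounts of 0.1 and 5, the rescaled knockout and wild-type minima of 5 and 20. Others were selection on the mean of both signals or on the knockout, and a limit of 0.25 on the deposited SD over the mean. A further setting, added after the data were seen, left out members that overlap another named gene. The count of lower members stayed within 1.5 times of 99 under all these settings, from 85 to 131. Rescaling took the count of higher members from 3 to 0, the median change to -1.53, and the medians with and without a TAF7L promoter score to -0.93 and -1.69, with 31 in place of 15 lower members among those with a score. The median with a score was -0.21 at a wild-type minimum of 5 and -0.32 with a knockout signal of at least 10. A pseudocount of 5 gave medians of -0.95 for all members and -1.10 for those without TAF7L. Score counts were also taken from any transcript of the gene, at or above the lower quartile of all scores, and from any position class, and only the last changed them past 1.5 times: it raised the members with TAF7L from 67 to 120. None of these medians changed sign. The log2 ratio of the summed Leydig signals went from -0.31 to 1.10 without Insl3, and that of the leukocyte genes from 2.57 to 1.28 without Cd52, both chosen after the data were seen. No paired analysis was possible because each genotype has 1 pooled library, and no library could be left out for the same reason. Depth is known only for the RNA libraries, as a range, so a member's counting error is not given; the deposited SD was 0.0721 of the mean in the median member (0.0255 to 0.321).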
